A study of Mus musculus with 48 samples.

Results

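Cirbp and Rbm3, which encode RNA-binding proteins made more in the cold, and 7 cytosolic heat shock genes, Hspa1a, Hspa1b, Hspa8, Hsph1, Dnajb1, Hsp90aa1 and Hspb1, were followed in mouse brain across feeding states. They are 9 genes chosen by symbol out of 56893 entries of the count table, and all 9 were among the 17352 genes with enough counts to be tested. Each of the 48 libraries came from a single brain hemisphere of a different mouse, and the 12 groups, 4 mice each, combine the sexes, the genotypes and 3 feeding states. Libraries held between 7574827 and 16185373 counts, with a median of 10515486.

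Control mice carried Grin1fl/fl, a floxed Grin1 gene for the obligatory NMDA receptor subunit, except that 1 female control in the unrestricted state (replicate 2) was Grin1fl/+. Knockout mice were Aldh1a1+/P2A-CreERT2::Grin1fl/fl, so that Grin1 can be lost only where Aldh1a1 is active, which includes some dopamine neurons of the midbrain. The floxed gene is shared by controls and knockouts. All mice were moved from group housing to single cages with chow and were between 5.5 and 8.5 months old. Unrestricted mice spent about 48 h alone with food, restricted mice went without food on 2 nights with chow returned between them, and refed mice had the same 2 nights followed by 72 h of free grain pellets from an automatic feeder. Refed mice were 6.5 to 8 months old (median 7.5), restricted mice 5.5 to 8 (median 7) and unrestricted mice 5.5 to 8.5 (median 7). Refed mice therefore differ from unrestricted mice in diet, feeder and time alone as well as in past restriction, and these cannot be told apart. Refed and restricted mice differ in diet, feeder and time alone as well as in the return of food, and these cannot be told apart either. The words with refeeding stand below for refed against restricted mice. Body temperature and the hour of collection are not given in the sources used here.

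Cooling a mammalian cell by a few degrees is known to raise CIRBP and RBM3, which bind messenger RNAs and affect their stability, splicing and translation, while warming lowers them. Heat shock genes answer the opposite stimulus: heat or misfolded protein releases the transcription factor HSF1, which binds heat shock elements, alternating copies of an nGAAn unit, in their promoters. In the brain, RBM3 is known for its part in synapse maintenance after cooling, CIRBP follows the daily rhythm of body temperature, and HSPA8 and HSP90 are abundant in neurons without any stress.

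Promoter sequences are shown for the genes on which the results turn and which have an entry in the RefSeq promoter table used here (built on GRCm38.p6): Cirbp, the paralogs Hspa1a and Hspa1b, and Hsph1. Each is the 250 bases before a RefSeq transcription start, on the strand of the gene, and was placed on GRCm39 by an exact match that occurs 1 time on its chromosome. Capitals mark the letters TCCCCGCC, known as the mild cold response element of Cirbp, or 2 facing heat shock units, written GAANNTTC or TTCNNGAA, searched on both strands. For Cirbp (chr10:80003423-80003672, plus strand, the more upstream of its 2 entries) the capitals are the cold element. For Hspa1a (chr17:35191133-35191382, minus strand) and Hspa1b (chr17:35178215-35178464, minus strand) the first capitals are the cold element read on the other strand and the second are heat shock units. For Hsph1 (chr5:149559802-149560051, minus strand, the more upstream of its 2 entries) the capitals are heat shock units.
Cirbp: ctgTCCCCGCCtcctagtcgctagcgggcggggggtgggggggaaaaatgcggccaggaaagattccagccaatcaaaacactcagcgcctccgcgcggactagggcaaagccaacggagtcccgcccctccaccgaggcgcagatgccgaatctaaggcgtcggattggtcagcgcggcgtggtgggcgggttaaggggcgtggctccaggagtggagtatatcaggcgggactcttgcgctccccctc
Hspa1a: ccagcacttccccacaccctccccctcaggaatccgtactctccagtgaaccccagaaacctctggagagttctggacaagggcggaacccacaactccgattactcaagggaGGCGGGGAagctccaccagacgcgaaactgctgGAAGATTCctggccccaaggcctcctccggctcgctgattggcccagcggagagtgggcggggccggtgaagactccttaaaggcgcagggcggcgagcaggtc
Hspa1b: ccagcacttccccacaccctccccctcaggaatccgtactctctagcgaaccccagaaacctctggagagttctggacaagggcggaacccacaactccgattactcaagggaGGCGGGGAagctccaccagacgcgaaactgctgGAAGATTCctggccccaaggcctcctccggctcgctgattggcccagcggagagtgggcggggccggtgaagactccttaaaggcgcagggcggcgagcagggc
Hsph1: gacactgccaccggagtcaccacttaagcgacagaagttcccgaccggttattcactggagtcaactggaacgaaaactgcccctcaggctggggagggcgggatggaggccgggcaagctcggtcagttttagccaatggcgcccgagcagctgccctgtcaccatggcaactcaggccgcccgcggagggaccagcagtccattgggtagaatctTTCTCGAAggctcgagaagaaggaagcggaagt

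Counted from the start, the cold element of Cirbp lay at positions -247 to -240, and the other Cirbp entry held no cold element. In both Hspa1a and Hspa1b the heat shock pair lay at -104 to -97 and the cold element at -137 to -130. The 250 bases of Hspa1a and Hspa1b differed at 3 positions, an identity of 98.8%. In Hsph1 the pair TTCTCGAA lay at -33 to -26 from the printed start. Hspb1, not printed, held GAAGTTTC and GAACCTTC, and no pair was found in the windows of Cirbp or Dnajb1. Rbm3, Hspa8 and Hsp90aa1 had no entry. Thus 4 of the 6 genes with an entry held a pair of either kind, against 12.8% of 32817 promoter windows of the same length. The head-to-head form stood in 3 of 6 against 6.69% of windows, the tail-to-tail form in 1 of 6 against 7.16%, and the cold element in 3 of 6 against 4.64%. An element of 3 alternating units was found in 0 of 6 genes and in 0.466% of windows. These are matches of letters, and the matches of Hspa1a and Hspa1b are not independent. A gene was counted where any of its entries matched, while the percentages are over single windows, so these are unlike measures.

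Levels per kilobase of the annotated canonical transcript, as scaled counts per unit of library size (CPM), set the 9 genes in order. Hspa8, the constitutive HSP70, was highest with 698 ± 56.8 CPM per kb (SD, n = 48 here and for the next 8 values), followed by Hsp90aa1, the inducible cytosolic HSP90, with 229 ± 14.3. Cirbp had 70.3 ± 14.95. Rbm3 had 35.5 ± 9.81 and Hsph1, an HSP110 nucleotide exchange factor for HSP70, had 32.9 ± 3.44. These 2 neighbours overlapped in spread, and the value of Rbm3 depends on the 5007-base transcript annotated as canonical. Dnajb1, an HSP40 co-chaperone that hands clients to HSP70, had 17.7 ± 2.11. The small heat shock protein gene Hspb1 had 5.56 ± 1.86 CPM per kb. The stress-inducible HSP70 genes Hspa1a and Hspa1b had 3.63 ± 0.498 and 3.39 ± 0.667, and these lowest values overlapped.

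Restriction was accompanied by higher Cirbp and Rbm3 and by lower Hsph1, and with the sexes pooled all 3 moved back toward unrestricted levels with refeeding. A gene is called where edgeR's quasi-likelihood test, adjusted by the Benjamini-Hochberg method over all 17352 genes, gave p under 0.05. Between restricted and unrestricted mice (16 against 16), 3 of the 9 genes were called, 2 higher and 1 lower. The background was wide, since 15.2% of all tested genes were called in that comparison, 7.31% higher and 7.84% lower. Between refed and restricted mice 4 of the 9 were called, 2 in each direction, against a background of 15.2%, with 8.38% higher and 6.79% lower. Between refed and unrestricted mice 1 of the 9 was called, higher, against 0.738% of all genes, 0.467% higher and 0.271% lower. The median log2 difference over the 9 genes was 0.0040, 0.062 and 0.10 in the 3 comparisons, beside a median over all tested genes of -0.00046, -0.0010 and -0.00040. The 3 comparisons share groups, so that refed against restricted is not independent of restricted against unrestricted.

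**Figure D1:**
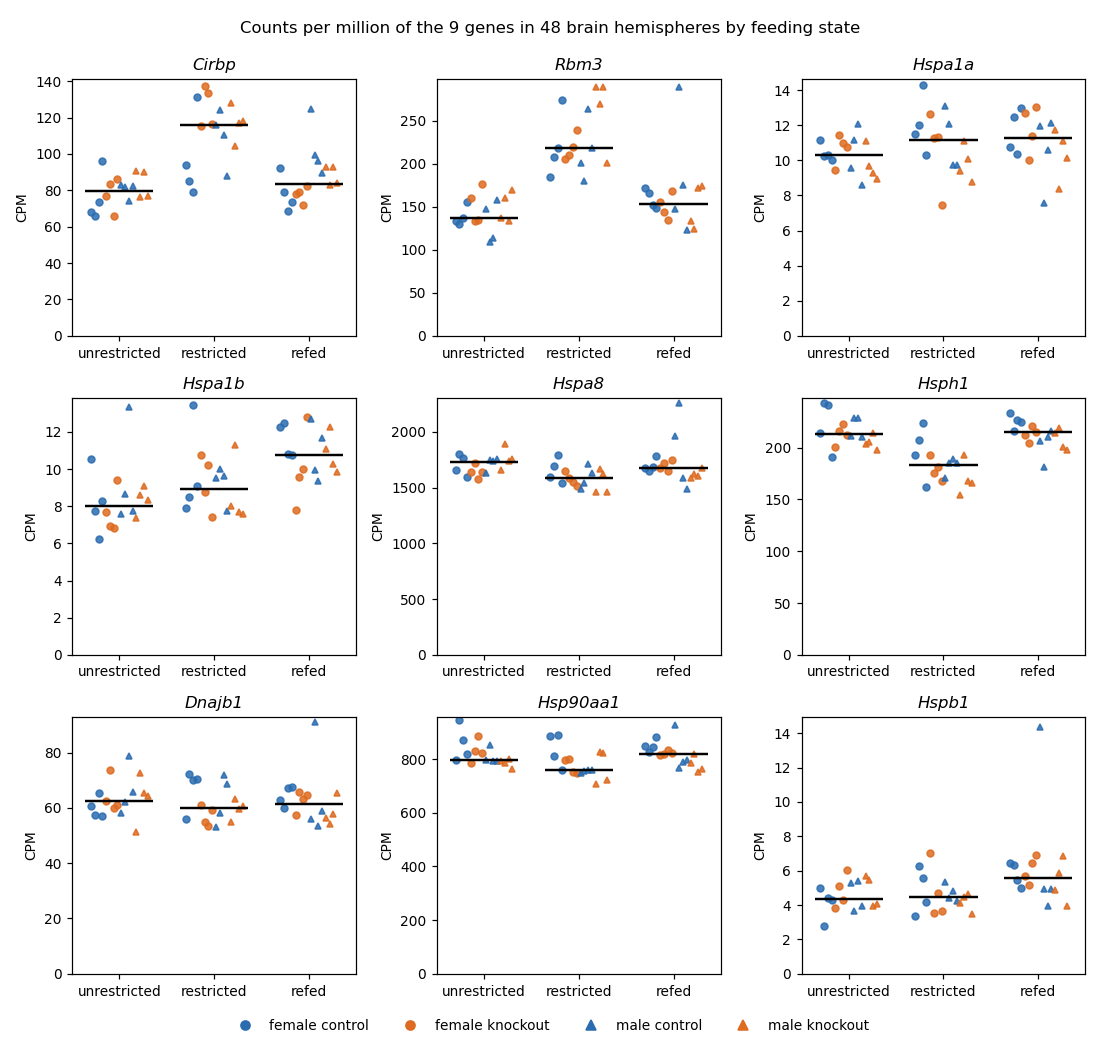
CPM (vertical axes, from 0) of each of the 9 genes in the 48 libraries, by feeding state; points are mice, circles female and triangles male, blue control and orange knockout, and bars are medians of 16. All restricted mice lie above all unrestricted mice for Rbm3, and a single refed male control stands far above the rest for Hspb1 (14.4 CPM) and another for Dnajb1 (90.9 CPM).

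Rbm3 lies on the X chromosome (GRCm39, positions 8004213 to 8012119, minus strand). In unrestricted mice it ranged from 110 to 176 CPM with a median of 137, in restricted mice from 179 to 289 with a median of 218, and in refed mice from 123 to 289 with a median of 153. Every one of the 16 restricted mice was above the highest unrestricted mouse. How many of all tested genes separate as fully was not counted, here or for the other genes and the sexes below. By p in this comparison, Rbm3 ranked 121 among the 17352 genes tested, Cirbp 131 and Hsph1 302. Of the 16 refed mice, 15 were below the lowest restricted mouse, and the exception was male control refed replicate 2 with 288.6 CPM. The log2 difference was 0.68 with restriction (SE 0.081, 60.0% higher, 95% interval of the fold 1.43 to 1.79, adjusted p = 2.21e-08) and -0.51 from restriction to refeeding (SE 0.081, adjusted p = 8.86e-06). Refed against unrestricted mice differed by 0.17 (95% interval 0.0055 to 0.33, adjusted p = 0.370), which was not called. A hemisphere mixes many cell types, and more cells of a type cannot be told apart from more RNA per cell in any of these values.

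Cirbp lies on chromosome 10 (GRCm39, 79997069 to 80008626, plus strand). It ranged from 65.6 to 95.9 CPM in unrestricted mice (median 79.4), from 79.0 to 138 in restricted mice (median 116) and from 68.4 to 124 in refed mice (median 83.5). Most restricted mice were above the unrestricted range, 12 of 16, but the groups overlapped, and 5 of 16 refed mice were below all restricted mice. The difference was 0.50 with restriction (SE 0.061, 1.41-fold, 95% interval 1.30 to 1.54, adjusted p = 4.01e-08) and -0.38 with refeeding (SE 0.061, adjusted p = 1.02e-05). Against unrestricted mice, refed mice differed by 0.12 (95% interval -0.0067 to 0.24, adjusted p = 0.415).

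Hsph1 lies on chromosome 5 (GRCm39, 149537636 to 149560156, minus strand). It ranged from 191 to 244 CPM in unrestricted, 154 to 224 in restricted and 181 to 233 in refed mice, with medians of 213, 183 and 215. Of the restricted mice 11 of 16 were below every unrestricted mouse, and the other 5 overlapped. The difference was -0.24 with restriction (SE 0.038, 0.846-fold, adjusted p = 4.95e-06) and 0.22 with refeeding (SE 0.038, adjusted p = 2.30e-05). Refed and unrestricted mice differed by -0.018 (95% interval -0.094 to 0.057, adjusted p = 0.868).

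Hspa8, Hsp90aa1 and Dnajb1 differed by smaller amounts that were not called. Hspa8 (chromosome 9, 40711630 to 40731039, plus strand) had medians of 1728, 1589 and 1676 CPM in unrestricted, restricted and refed mice, and the groups overlapped. Its differences were -0.098 with restriction (95% interval -0.18 to -0.019, adjusted p = 0.0869) and 0.10 with refeeding (0.021 to 0.18, adjusted p = 0.0759). The first was called in 2 of 13 other settings, with limma quality weights (adjusted p = 0.0197) and with only the groups compared (0.0352). The second was called with the transcript length trend removed (0.0286), and without male control refed replicate 3 (0.0449) or replicate 4 (0.0169). Hsp90aa1 (chromosome 12, 110656842 to 110669166, minus strand) had medians of 798, 760 and 820 CPM, and 9 of 16 restricted mice were below all unrestricted mice. Its differences were -0.066 (95% interval -0.13 to -0.0028, adjusted p = 0.163) and 0.062 (-0.00078 to 0.13, adjusted p = 0.181). Dnajb1 (chromosome 8, 84334811 to 84339820, plus strand) had medians of 62.4, 60.1 and 61.4 CPM and differences of -0.046 (95% interval -0.16 to 0.071) and 0.023 (-0.094 to 0.14).

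Hspa1a and Hspa1b are neighbours on chromosome 17 (GRCm39, 35188166 to 35191132 and 35175412 to 35178214, both minus strand), and reads shared between them were divided by estimation. Of the 100-base windows of the Hspa1a transcript 47.1% occur in Hspa1b, and of those of Hspa1b 49.9% occur in Hspa1a, so the split between them is uncertain. Their estimated counts per library were low, 68.9 to 187 for Hspa1a and 51.8 to 206 for Hspa1b. Hspa1a had medians of 10.3, 11.2 and 11.3 CPM in unrestricted, restricted and refed mice. Its differences, 0.081 (95% interval -0.061 to 0.22, adjusted p = 0.510) with restriction and 0.022 (-0.12 to 0.16, adjusted p = 0.876) with refeeding, were not called. Hspa1b ranged from 6.24 to 13.3 CPM in unrestricted mice (median 8.01), 7.44 to 13.5 in restricted mice (median 8.93) and 7.80 to 12.8 in refed mice (median 10.8). All 3 ranges overlapped.

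Hspa1b was the single gene of the 9 called between refed and unrestricted mice, by 0.36 (SE 0.086, 1.29-fold, adjusted p = 0.0273). It was 0.24 higher than in restricted mice (adjusted p = 0.0532), which was not called. That difference was called in 3 of 11 other settings, DESeq2 (adjusted p = 0.0468) and removal of the length (0.0425) or GC trend (0.0374). It was also called in 7 of 32 fits without a library, at adjusted p of 0.0143 to 0.0489: male control refed replicate 2 or 3, male control restricted replicate 2, female knockout restricted replicate 1, female knockout refed replicate 1, male knockout restricted replicate 2 or female control restricted replicate 3. The sum of Hspa1a and Hspa1b, which does not depend on the split, had medians of 18.3, 19.8 and 21.3 CPM, and refed against unrestricted mice differed by 0.22 (SE 0.065, adjusted p = 0.0980), not called. The share of Hspa1b in the pair was 44.7% ± 4.45 in unrestricted, 45.8% ± 3.06 in restricted and 49.5% ± 4.72 in refed mice (SD, n = 16 each). Leaving out male control refed replicate 1, female control refed replicate 1, female knockout refed replicate 4, male control unrestricted replicate 4 or female knockout unrestricted replicate 3 ended the call, with differences of 0.329 to 0.351 and adjusted p of 0.0510 to 0.0545.

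Hspb1 (chromosome 5, 135916760 to 135918417, plus strand) ranged from 2.80 to 6.06 CPM in unrestricted mice, 3.39 to 7.05 in restricted mice and 3.92 to 14.4 in refed mice, with medians of 4.38, 4.47 and 5.56. It was called higher in refed than in restricted mice, by 0.40 (SE 0.13, adjusted p = 0.0324), and differed by 0.41 from unrestricted mice (adjusted p = 0.161), which was not called. The 14.4 CPM belonged to male control refed replicate 1, and the other 15 refed mice reached at most 6.90 CPM. That library also held 5276 CPM over 8 skeletal muscle markers, where the median of every feeding state was between 12.97 and 13.67 CPM and no marker was at 0 in any library. Female control restricted replicate 2, with 358 CPM, was the highest restricted library for these markers. Without male control refed replicate 1 the difference was 0.244 (adjusted p = 0.109). With limma quality weights it was 0.25 (0.115), with a block of library numbers 0.358 (0.139) and with only the groups compared 0.399 (0.0614). Without 3 libraries that stand apart it was 0.287 (0.0586). These are male control refed replicate 1, female control restricted replicate 2 and female knockout unrestricted replicate 2. None of these fits kept the call. The call also ended without any of 8 other libraries, at adjusted p of 0.0503 to 0.0650: female control restricted replicates 1 and 4, female knockout restricted replicates 2 and 4, male control restricted replicate 4, male knockout restricted replicate 4, female control refed replicate 1 and male knockout refed replicate 3.

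**Figure D2:**
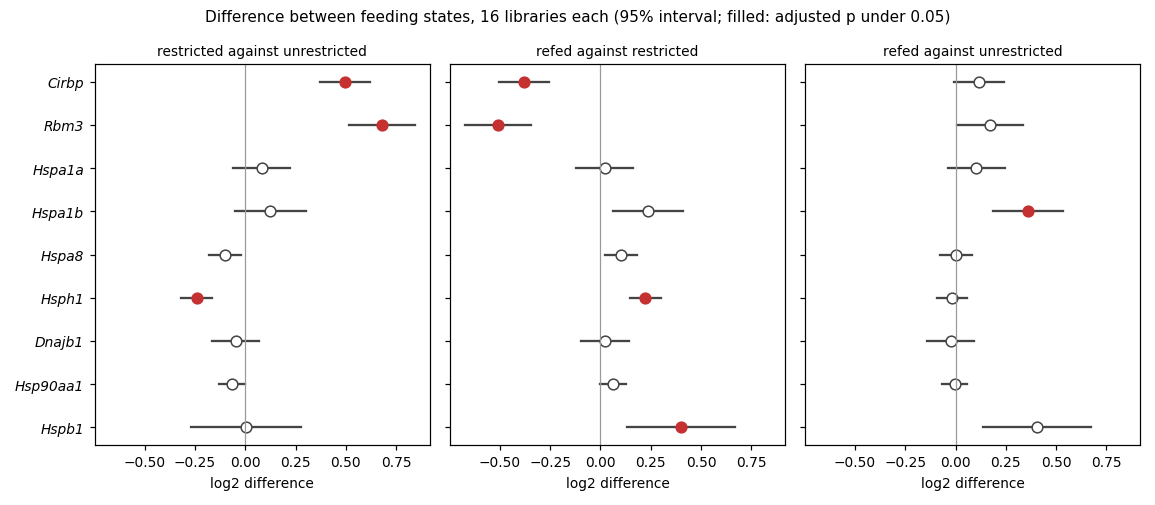
Log2 differences (horizontal axes) of the 9 genes between feeding states, 16 libraries each, with 95% intervals; filled points have an adjusted p under 0.05. Rbm3 and Cirbp lie to the right with restriction (0.68 and 0.50) and to the left with refeeding (-0.51 and -0.38), Hsph1 moves the other way, and the intervals of Hspa8 and Hsp90aa1 are narrow and near 0.

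The numbers given to the libraries by the submitters split the samples unevenly: all 16 refed libraries, but 5 of 16 unrestricted and 7 of 16 restricted ones, are numbered up to 28. The labels do not say what the numbers stand for. Within libraries numbered up to 28, restriction against no restriction gave 0.60 for Cirbp (adjusted p = 0.000292), 0.58 for Rbm3 (0.0215) and -0.22 for Hsph1 (0.00736). Within libraries numbered from 29 it gave 0.42 (0.00183), 0.76 (6.82e-07) and -0.24 (0.00535). The 3 genes therefore kept their direction and call in both sets. Refed against restricted within the first set gave -0.50 for Cirbp (1.74e-05), -0.41 for Rbm3 (0.0149) and 0.25 for Hsph1 (4.63e-05). For Hspa1b, refed against unrestricted gave 0.43 within that set (adjusted p = 0.204), and for Hspb1, refed against restricted gave 0.38 (0.196); neither was called there.

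The pattern was seen in both sexes. In females, 8 mice a state, 3 of the 9 genes were called with restriction (background 6.27%) and 3 with refeeding (6.1%), and 0 between refed and unrestricted mice (0.0403%). In males the counts were 3 (8.28%), 2 (8.33%) and 0 (0.167%). Between restricted and unrestricted mice, Rbm3 was higher by 0.60 in females and 0.75 in males, and Cirbp by 0.52 and 0.47. For Hsph1 the difference was -0.21 in females (adjusted p = 0.00855) and -0.27 in males (adjusted p = 0.000478). All 8 restricted mice of each sex were above all 8 unrestricted mice of that sex for Rbm3, and all 8 restricted males were below all 8 unrestricted males for Hsph1.

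With refeeding, Rbm3 fell by 0.50 in females and by 0.51 in males. Cirbp fell by 0.50 in females (adjusted p = 0.000122), while its difference of -0.25 in males had an adjusted p of 0.0544. The male call was reached without male control refed replicate 1 (-0.312, adjusted p = 0.0177), male control refed replicate 2 (-0.255, 0.0423), male control restricted replicate 4 (-0.303, 0.0229) or male knockout restricted replicate 2 (-0.280, 0.0452). It was also reached in 6 of 11 other settings, the block of library numbers (-0.308, adjusted p = 0.0387), DESeq2 (0.0430), no filter on low counts (0.0394), limma quality weights (0.0193), the GC trend removed (0.0336) and the fit without the 3 libraries that stand apart (0.0202). The test of feeding state by sex called 0 of the 9 genes and 0 of all tested genes (0%), with 0 of the 9 and 1101 of all at an unadjusted p under 0.05. For Cirbp its adjusted p was 0.816 in edgeR, so a difference between the sexes was not shown. Refed against unrestricted, Cirbp differed by 0.021 in females and 0.21 in males (95% interval 0.040 to 0.39, adjusted p = 0.303). Of the refed males, 5 of 8 were above all unrestricted males. Rbm3 differed by 0.098 and 0.24 (males 0.010 to 0.47, adjusted p = 0.359). Mean Cirbp in unrestricted, restricted and refed males was 80.3, 110 and 102 CPM in controls and 83.5, 117 and 88.0 in knockouts.

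Male and female mice differed in 0 of the 9 genes, where 0.357% of all genes were called. At an unadjusted p under 0.05 there were 3 of the 9: Cirbp was 0.14 higher in males (adjusted p = 0.159), and Hsph1 and Hsp90aa1 differed by -0.073 (0.209) and -0.076 (0.135) in males against females. Rbm3, although X-linked, differed by 0.056 (95% interval -0.077 to 0.19, adjusted p = 0.694).

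**Figure D3:**
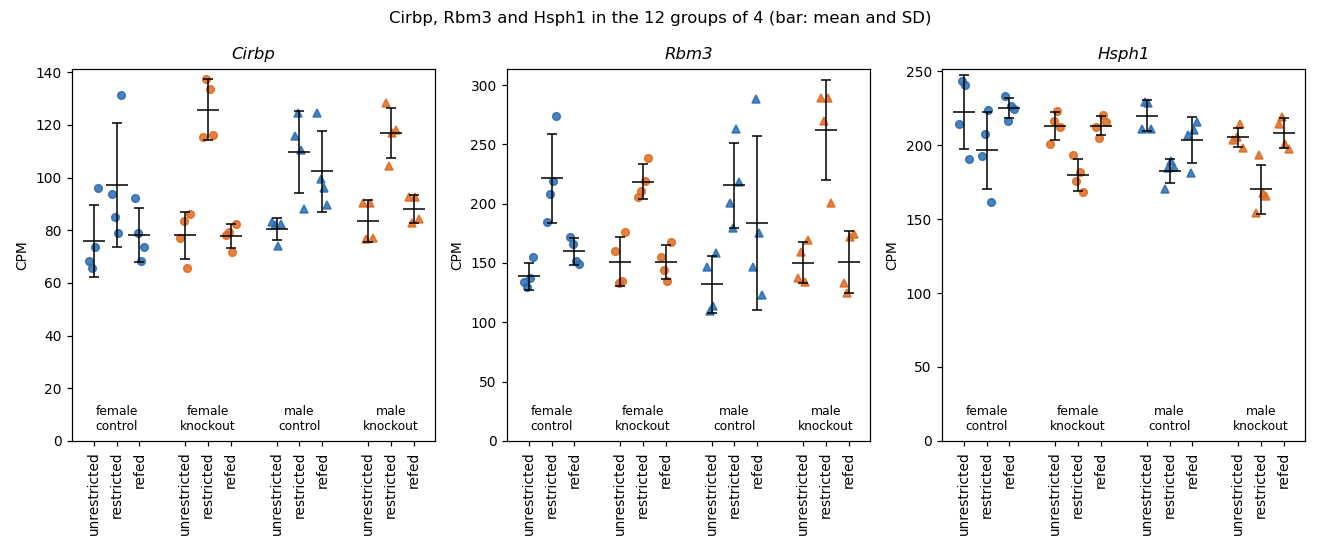
CPM (vertical axes, from 0) of Cirbp, Rbm3 and Hsph1 in the 12 groups of 4 mice, with the mean and SD as bars. In each combination of sex and genotype the restricted mean is the highest of the 3 states for Cirbp and Rbm3 and the lowest for Hsph1; female control restricted mice spread widely for Cirbp, from 79.0 to 131 CPM.

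Knockout and control mice differed in 0 of the 9 genes, where 1 gene in all, 0.00576%, was called, and 1 of the 9 and 430 of all had an unadjusted p under 0.05. That gene was Hsph1, at -0.072 (95% interval -0.13 to -0.011, adjusted p = 1 in edgeR). Mean Cirbp was 95.01 CPM in knockouts and 90.61 CPM in controls, and mean Rbm3 180.5 and 175.1, with intervals of the log2 difference from -0.045 to 0.16 and from -0.099 to 0.17. Within the 6 combinations of sex and state (4 against 4) the counts were again 0 of 9, against backgrounds of 0.0115% in unrestricted, 0.386% in restricted and 0.00576% in refed females, and of 0.00576%, 0.00576% and 0.225% in unrestricted, restricted and refed males.

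Among the 9 genes the smallest unadjusted p between genotypes was that of Cirbp in restricted females. The 4 knockouts had 116, 138, 134 and 116 CPM and the 4 controls 93.7, 84.9, 79.0 and 131 CPM. A single control, replicate 4, lay within the knockout range, and the log2 difference was 0.37 (95% interval 0.12 to 0.61, adjusted p = 0.150 in edgeR). Without that control it was 0.554 (adjusted p = 0.0308), and with sample quality weights in limma it was 0.473 (adjusted p = 0.0119). These were the only calls among 8 fits without a library and 11 other settings, and the lowest values were 0.293 without female control restricted replicate 3 (adjusted p = 0.390) and 0.294 in the other settings. In restricted males the difference was 0.092 (95% interval -0.15 to 0.34). The test of feeding state by genotype gave Cirbp an adjusted p of 0.973 in edgeR, and called 0 of the 9 and 0 of all genes, with 1 of the 9, Cirbp, and 792 of all at an unadjusted p under 0.05.

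As checks of labels, Grin1 itself did not separate genotypes in whole hemispheres (356 ± 29.4 CPM in 24 knockouts, 351 ± 49.3 in 24 controls, SD), and Aldh1a1 was 101 ± 16.7 in knockouts and 190 ± 27.3 in controls. Xist was at 449 CPM or more in all females and at 14.7 or less in all males. Neuronal markers were abundant in every library, with summed levels of 4483 to 6080 CPM over 6 genes.

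Most related chaperones that were called moved in the direction of Hsph1. Among 30 other HSF1-regulated and cytosolic chaperone genes, 1 was called higher and 7 lower with restriction. This is 26.7% of the list beside 15.2% of all genes, 7.31% higher and 7.84% lower. With refeeding 11 were higher and 0 lower (36.7%), beside 15.2% of all genes, 8.38% higher and 6.79% lower. The median log2 difference of the list was -0.052 and then 0.069. Cryab, a small heat shock protein made mainly by glia, had 82.0 ± 5.87 CPM in unrestricted, 61.1 ± 7.69 in restricted and 82.2 ± 11.6 in refed mice (SD, n = 16 each), differences of -0.43 and 0.43. Serpinh1, the collagen chaperone HSP47, went from 14.6 ± 1.96 to 10.4 ± 1.75 and 15.4 ± 2.82 CPM, differences of -0.50 and 0.58. Dnajb2, a neuronal HSP40, had differences of -0.22 and 0.27. Adjusted p-values of these 6 differences were at most 1.92e-05. Against unrestricted mice, refed mice differed in 1 of the 30 (3.33% beside 0.738% of all genes). This was the HSP70 gene Hspa2, by 0.23 (adjusted p = 0.0273).

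Of 10 chaperones of the endoplasmic reticulum, 0 were higher and 3 lower with restriction, and 7 were higher and 0 lower with refeeding, with list medians of -0.097 and 0.28, beside 7.84% of all genes lower with restriction and 8.38% higher with refeeding. Calr, the calcium-binding chaperone calreticulin, had 270 ± 20.8 CPM in unrestricted, 224 ± 25.7 in restricted and 274 ± 18.7 in refed mice (differences -0.27 and 0.29). The disulfide isomerase gene Pdia6 changed by -0.15 and 0.30, and Hsp90b1, the reticular HSP90, by -0.14 with restriction. Pdia4, another isomerase, rose by 0.34 with refeeding (adjusted p = 1.62e-05) and stood 0.25 above unrestricted mice (adjusted p = 0.0121). It was the 1 gene of this list called between refed and unrestricted mice, where 0.738% of all genes were called. Among 8 mitochondrial chaperones and proteases 1 was called in each of the first 2 comparisons (12.5%, below the 15.2% of all genes), the protease gene Lonp1 higher with restriction (0.14, adjusted p = 0.0278) and Hspd1, which encodes HSP60, higher with refeeding (0.15, adjusted p = 0.00406).

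A list of 17 genes held splicing kinases and RNA processing factors chosen as temperature-sensitive, and also the reticulon gene Rtn3. Of these 17, 2 were higher and 0 lower with restriction (11.8%, below the 15.2% of all genes). With refeeding 2 were higher and 4 lower (35.3% beside 15.2%). Clk4, a kinase that phosphorylates splicing factors, went from 81.5 ± 7.80 CPM in unrestricted to 92.5 ± 13.8 in restricted and 77.4 ± 8.81 in refed mice (differences 0.18 and -0.25). The splicing factor gene Srsf2 changed by 0.11 and -0.12, and Hnrnpdl by -0.12 with refeeding. Of 10 genes of thermoregulation and torpor 7 were tested, and 1 was called in each of the first 2 comparisons (14.3%, below the 15.2% of all genes). This was Dio2, whose product makes active thyroid hormone, with 52.8 ± 6.57 CPM in unrestricted, 63.5 ± 8.96 in restricted and 50.1 ± 4.43 in refed mice (differences 0.26 and -0.34, adjusted p = 0.000773 and 2.45e-05).

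**Figure D4:**
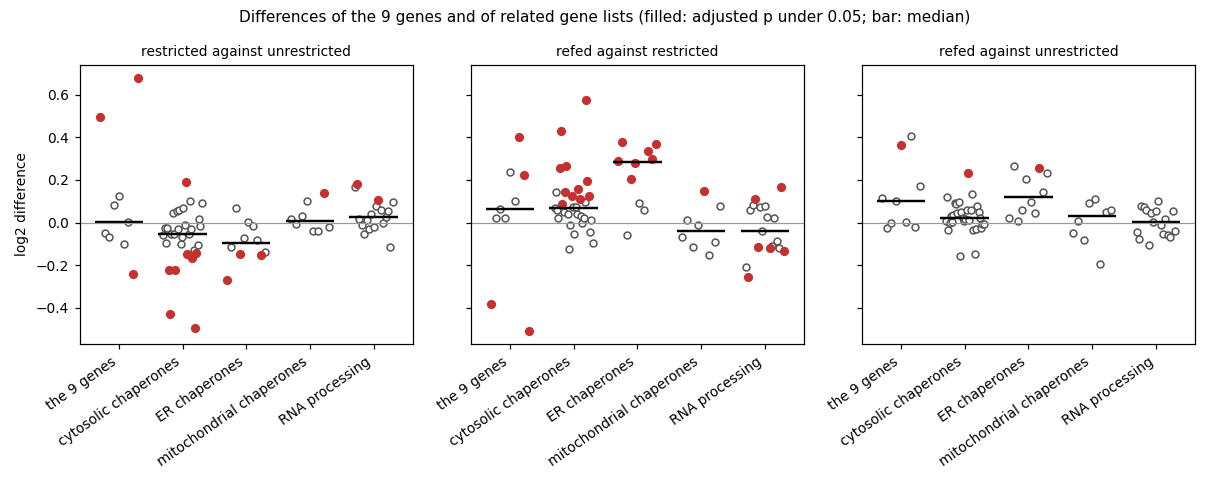
Log2 differences (vertical axis) of the 9 genes and of 4 lists of related genes in the 3 comparisons of feeding states; points are genes, filled where the adjusted p is under 0.05, and bars are medians. Called cytosolic and reticular chaperones lie mostly below 0 with restriction and all above 0 with refeeding, and few points are filled between refed and unrestricted mice.

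Gene lists outside temperature moved in the same comparisons. Over all tested genes, 7.31% were called higher and 7.84% lower with restriction, and 8.38% and 6.79% with refeeding. Between refed and unrestricted mice the shares were 0.467% and 0.271%. All 8 glucocorticoid-responsive genes were higher with restriction and lower with refeeding, among them Fkbp5, a co-chaperone of the glucocorticoid receptor with HSP90 (1.43 and -1.07), the cell cycle inhibitor gene Cdkn1a (2.09 and -2.27) and Sult1a1 (1.58 and -1.51). Between refed and unrestricted mice 3 of them were higher: Fkbp5 (0.37), Tsc22d3 (0.30) and Zbtb16 (0.59). Of 15 clock genes 6 were higher with restriction, with Per1 (0.35), Per2 (0.49) and Ciart (0.45) first by p. With refeeding 3 were higher and 2 lower, among them Per1 (-0.34), Per3 (0.25) and Dbp (0.50). Between refed and unrestricted mice 7 clock genes were higher and 1 lower, with Per2 (0.65), Per3 (0.36) and Tef (0.25) first. Clock genes are known to differ by hour of the day, and the part of the hour of collection in the values of Cirbp and Rbm3 was not tested. Of 9 immediate early genes 0 were called with restriction, 3 were lower with refeeding, Fos (-0.56), Nr4a1 (-0.54) and Dusp1 (-0.50), and 2 were lower in refed than unrestricted mice, Fos (-0.75) and Nr4a1 (-0.66).

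Markers of cell types moved as well, and their part in the results was not tested. The shares of all genes to set beside them are 7.84% lower with restriction, and 8.38% higher and 6.79% lower with refeeding. None of 6 neuronal markers, 5 choroid plexus markers or 8 muscle markers was called in the 3 comparisons. Of 5 microglial markers 3 were lower with restriction and 5 higher with refeeding, with summed medians of 161, 138 and 167 CPM in unrestricted, restricted and refed mice. Cx3cr1 (-0.46 and 0.42), P2ry12 (-0.39 and 0.50) and C1qa (-0.14 and 0.17) led. Among oligodendrocyte markers, Mog (-0.16) and Mag (-0.28) were lower with restriction and higher with refeeding (0.18 and 0.31), while Mobp was lower with refeeding (-0.31).

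Of 5 astrocyte markers 1, Aqp4, was lower with restriction (-0.48), and Aqp4 (0.50) and Gja1 (0.19) were higher with refeeding. Over all genes 7.84% were lower and 7.31% higher with restriction, and 8.38% were higher with refeeding. Of 6 endothelial markers Cldn5 (-0.24) and Tie1 (-0.43) were lower and Slco1a4 (0.21) higher with restriction, and Tie1 was higher with refeeding (0.26). Of 5 red cell genes 0 were called with restriction, and all 5 were higher in refed mice than in restricted and than in unrestricted mice. The shares of all genes higher in these last comparisons were 8.38% and 0.467%. Hba-a1 (1.53 and 1.29), Hba-a2 (1.48 and 1.33) and Alas2 (1.73 and 1.49) led, and the summed median was 529 CPM in unrestricted, 466 in restricted and 1090 in refed mice. The red cell difference stands beside the refed values of Hspa1b and Hspb1, and its part in them was not tested.

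Across mice of the same group, deviations from the group mean were compared for the 36 pairs of the 9 genes over 48 libraries, with two-sided permutation tests of 100000 resamples within groups adjusted over the 36 pairs. With Pearson's r, 7 pairs passed, 5 positive and 2 negative. With Spearman's rho 10 passed, and the pairs beside those 7 were Rbm3 with Hsp90aa1 (rho = -0.454, adjusted permutation p = 0.0382), Hspa1a with Hspb1 (0.413, 0.0483) and Hspa8 with Hsp90aa1 (0.463, 0.0483), with r = -0.400, 0.402 and 0.333. Hspa8 and Dnajb1 had r = 0.672 (permutation p = 7e-05, adjusted 0.00252) and Spearman's rho = 0.618 (p = 5e-05, adjusted 0.0018), with r = 0.572 without the 2 libraries farthest from the median of Hspa8. Hsph1 and Hsp90aa1 had r = 0.655 (p = 0.0006, adjusted 0.0108), rho = 0.638 (p = 0.0002, adjusted 0.0036), and r = 0.606 without the 2 farthest. Mice of a group that were high in the first gene of such a pair tended to be high in the second.

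Cirbp and Hsph1 had r = -0.555 (permutation p = 0.00482, adjusted 0.0248) and rho = -0.426 (p = 0.011, adjusted 0.0483), and r was -0.356 without the 2 farthest libraries. Rbm3 and Hsph1 had r = -0.504 (p = 0.00197, adjusted 0.0222) and rho = -0.516 (p = 0.00146, adjusted 0.0175), and r was -0.425 without the 2 farthest. Cirbp and Rbm3 themselves had r = 0.190 (p = 0.291, adjusted 0.527) and rho = 0.160 (p = 0.322, adjusted 0.524), so mice of a group that were high in the first were not shown to be high in the second. The other 3 pairs that passed with Pearson's r were Hspa1a with Hsph1 (r = 0.446, rho = 0.393), Hspa1a with Hspa1b (0.445, 0.406), which share reads, and Hspa1b with Hspb1 (0.448, 0.409).

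These relations were weaker or uneven within the 2 sets of library numbers (23 libraries up to 28 and 19 from 29, where a group had at least 2). Cirbp and Hsph1 had r = -0.0737 in the first set and -0.803 in the second, and Rbm3 and Hsph1 had -0.783 and -0.478. Hspa8 and Dnajb1 had 0.741 and 0.283, and Hsph1 and Hsp90aa1 had 0.445 and 0.772. Hspa1a had 0.423 and 0.697 with Hsph1, and 0.154 and 0.674 with Hspa1b, and Hspa1b with Hspb1 had 0.563 and 0.382. In each of these pairs both values had the sign of the pooled one. Adjusted over the 36 pairs, 0 pairs passed in the first set and 1 in the second, so the relation of Cirbp with Hsph1 in particular was not seen in the first set.

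**Figure D5:**
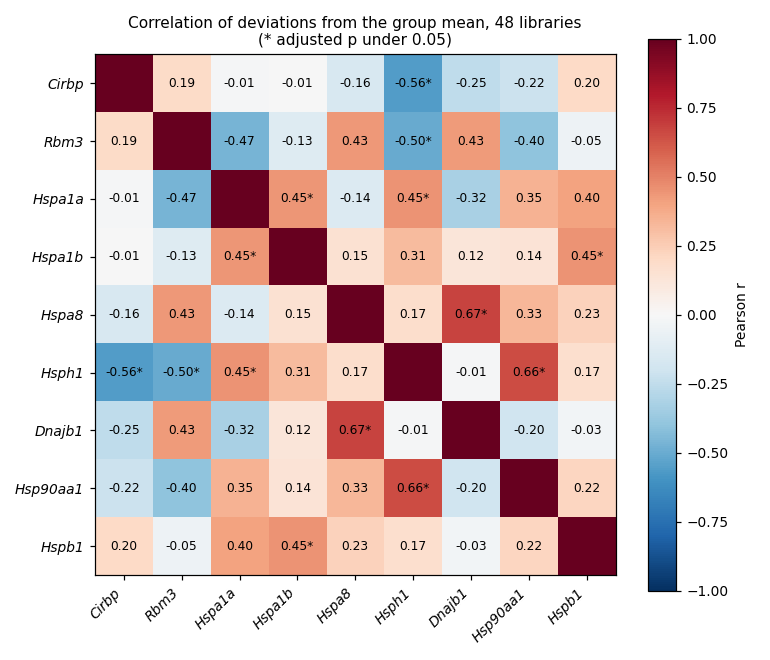
Pearson r (colour and numbers, from -1 to 1) between deviations from the group mean for each pair of the 9 genes over 48 libraries; asterisks mark an adjusted permutation p under 0.05. Hspa8 with Dnajb1 (0.67) and Hsph1 with Hsp90aa1 (0.66) are the deepest red, and the row of Hsph1 is blue at Cirbp and Rbm3 (-0.56 and -0.50).

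Genes whose log2 CPM over all 48 libraries was most like that of the 9 genes were taken by Pearson r, as a description that includes the feeding states. Most like Cirbp were Gm10654 (r = 0.811), Ggt7 (0.795), Timm44, a part of the mitochondrial import motor (0.788), Klhl40 (0.777) and Rtca, an RNA cyclase gene (0.775). Most like Rbm3 were Tppp3, which encodes a tubulin-binding protein (0.831), Zfand4 (0.829), the non-coding Mir22hg (0.823), Paxx, a DNA repair gene (0.808), and Dbndd2 (0.800). Cirbp and Rbm3 themselves had r = 0.667 over the 48 libraries. Within groups the r of the listed genes were 0.488 to 0.630 for the Cirbp list and 0.629 to 0.680 for the Rbm3 list. These come from the same libraries that were used to choose the genes. Most like the mean of the 7 heat shock genes were Hspa5, the reticular HSP70 (0.744), Stip1, which joins HSP70 to HSP90 (0.671), the inositol transporter gene Slc5a3 (0.663), Pdia6 (0.659) and Hsp90b1 (0.631). That mean itself had r = -0.468 with Cirbp and -0.372 with Rbm3 over the 48 libraries. The 7 genes were uneven in this. With Cirbp, r ran from -0.813 for Hsph1 and -0.484 for Hsp90aa1 to 0.0243 for Hspa1b. With Rbm3, it ran from -0.782 for Hsph1 and -0.442 for Hsp90aa1 to 0.139 for Dnajb1.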

How the data were processed

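Messenger RNA was sequenced from 48 hemispheres. Per the submitters' processing notes, fastp, STAR and Salmon were used with the mm39 build; versions, annotation and strand setting are not given in the sources used here. The authors deposited a table of expected counts per gene symbol, estimated counts not scaled between libraries, in which 66.1% of nonzero values were whole. Reads shared by near-identical genes were thus divided by estimation, which bears on Hspa1a and Hspa1b, and low entries on the other strand (such as Rbm3os, median 2.99 counts) cannot be separated without strand.

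Counts were rounded, low genes were removed by edgeR 4.0.16 (filterByExpr over the 12 groups, minimum count 10, minimum total 15), libraries were scaled by TMM (factors 0.913 to 1.03), and a model was fitted with glmQLFit and glmQLFTest in R 4.3.3, 1 coefficient per group over all 48 libraries. P-values were adjusted by the Benjamini-Hochberg method over all genes tested. CPM used TMM-scaled totals, and log2 CPM a prior count of 2. Alternatives used DESeq2 1.42.0 and limma 3.58.1. The test was also run on simulated counts with a single dispersion for all genes, and no result here rests on that run. Positions come from GENCODE M39 (GRCm39), promoters from RefSeq. The labels do not say whether mice of a group shared a litter or cage, and p-values measure the spread between these mice.

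The 9 genes, the gene lists and the marker lists were chosen with earlier results of these data known. Named were all 9 genes in every comparison; of each list the 3 called genes with the smallest p in each comparison of feeding states; and the 5 genes most like Cirbp, Rbm3 and the mean of the heat shock genes. Mobp, Grin1, Aldh1a1 and Xist were named outside that rule, after their values were seen or as checks of labels. A result of the oligodendrocyte list is not reported here. Numbers in library names were used to split libraries at 28.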

Additional observations from a re-analysis of the deposited data

Results flagged for a closer look

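Each of the 9 genes was examined in each of the 12 groups of 4 for a mouse far from the other 3, by the gap to its nearest neighbour as a share of the group's range (Dixon's test at 95%). Chance flags about 5% of such groups, and 7 of 108 (6.48%) were flagged, so the number of flags is near that of chance. In male control refed mice, Hspb1 was 14.37 CPM in replicate 1, against 3.93 to 4.918 CPM in the others, in the library that also held skeletal muscle transcripts. In the same group Dnajb1 was 90.88 CPM in replicate 2 against 53.62 to 58.72 CPM, in a library where Rbm3 and Hspa8 were also the highest of the group (288.6 and 2264 CPM). Dnajb1 was 55.89 CPM in female control restricted replicate 1 against 69.92 to 72.23 CPM. Hspa1b was 11.3 CPM in male knockout restricted replicate 2 against 7.577 to 8.007 CPM.

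Male control unrestricted mice gave 3 flags, each in a different mouse: Cirbp was 74.15 CPM in replicate 3 against 81.82 to 82.98 CPM, Hsp90aa1 was 852.6 CPM in replicate 2 against 794.4 to 796.1 CPM, and Hspa8 was 1631 CPM in replicate 1 against 1743 to 1754 CPM. In each case the other 3 mice lay close together, which the rule for a flag requires. No test of feeding state by sex or by genotype was called for any of the 9 genes.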

How the results depend on the processing

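The calls of Cirbp, Rbm3 and Hsph1 with restriction and with refeeding, sexes pooled, held in all 13 and all 12 other settings run and in each of the 32 fits without a library. No called value reversed. Between refed and unrestricted mice the count of called genes was 1, and 0 with a block of library numbers, without the 3 libraries that stand apart, within libraries up to 28, or with Hspa1a and Hspa1b summed; it was 0 to 1 over the fits without a library. Other counts over fits without a library were 3 to 6 for refed against restricted, 2 to 4 for the same in males, where it was 1 with only the groups compared, and 0 to 1 for knockout against control in restricted females, where limma with quality weights gave 1, as it did for male against female. Under the fit of only the groups compared, Rbm3 in refed against restricted males had an adjusted p of 0.071 and Hsph1 in restricted against unrestricted females 0.0514. The call of Hspb1 between refed and restricted mice also ended there (0.0614), and in the other settings given with that gene above. The sum of Hspa1a and Hspa1b reached the threshold with limma quality weights (0.208, adjusted p = 0.0293). Of the 36 pairs, 7 passed over all libraries, 0 within libraries up to 28 and 1 within those from 29, which hold fewer mice. The motif of 3 units matched 0 genes where that of 2 units matched 4. The cause of these changes was not tested, and the shares of all genes called under each setting are not shown. No paired analysis was possible because the labels carry no replicate numbers and numbers given in record order pair no mice. The setting without 3 libraries, the within-set fits and the removal of length and GC trends (98.6% of genes had both values) were chosen after seeing the data. Low counts limit Hspa1a, Hspa1b and Hspb1 (26 to 173 counts per library for Hspb1).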
